A study of Mus musculus with 13 samples.

Results

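The genes described here are 9 components of blood clotting and of clot removal that were followed in mouse lung: Plat, Plau, Plaur, F3, Thbd, F13a1, F2r, Tfpi and Procr. They were taken by gene symbol from the deposited tables, which list 20270 genes, and all 9 were present and passed the filter on low counts that left 15315 genes for testing. RNA from the lower right lung lobe of 13 mice was sequenced, taken here as 1 library per mouse. The control group held 4 wildtype (WT) C57BL/6J mice given the saline vehicle, numbered 3, 21, 24 and 26 in the labels. The WT bleomycin group held 5 WT mice, numbered 4, 2, 5, 4-B2 and 7, given bleomycin, a DNA-damaging drug used to induce lung fibrosis, once by the oropharyngeal route 14 days earlier. Labels 4 and 4-B2 share a number and were treated as different mice, which the labels do not state. The CB1R KO bleomycin group held 4 mice, numbered 8, 9, 10 and 11, labelled as lacking the cannabinoid receptor gene Cnr1, on the C57BL/6J background and received the same drug. The WT mice were obtained as 13-week-old males per the methods of the study, which do not give the age or sex of the CB1R KO mice. No untreated CB1R KO mice were analysed here, so a difference that the deletion makes in untreated lung cannot be told apart from one in the response to bleomycin.

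Clotting starts when tissue factor, encoded by F3, binds factor VII and activates factor X, and Tfpi encodes the inhibitor of that step. The thrombin formed at the end of the cascade cuts fibrinogen to fibrin, which factor XIII (F13a1 encodes its catalytic subunit) crosslinks, and signals to cells through the receptor encoded by F2r. On endothelium, thrombin bound to thrombomodulin (Thbd) activates protein C, which is held for this purpose by the endothelial protein C receptor (Procr). Fibrin is removed by plasmin, which the tissue activator (Plat) and the urokinase activator (Plau) release from plasminogen, the latter on cells that carry its receptor (Plaur). In injured lung, fibrin deposited in the air spaces is a well-known feature, and the balance between these activities has long been studied in fibrosis.

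The libraries held between 14615904 and 16662580 estimated counts, except CB1R KO replicate 11 with 53463884, or 3.33 times the median depth of the rest. The levels below are CPM, counts per unit of library size after TMM scaling, which makes libraries comparable. Changes are log2 fold changes from edgeR's quasi-likelihood test, with p adjusted over the 15315 genes and a threshold of 0.05. Their standard error (SE) was computed as the absolute log2 change divided by the square root of the F statistic of that test. Confidence intervals use this SE with a t distribution on the residual degrees of freedom, so they need not match the p of the test exactly. Cnr1, the deleted gene, was counted in every library, at 4.10, 1.62, 2.88 and 2.06 CPM in control, 6.97, 5.68, 6.56, 3.46 and 6.17 CPM in WT bleomycin and 5.63, 2.47, 4.60 and 3.47 CPM in CB1R KO lung. CB1R KO overlapped with both other groups, and its log2 change from WT bleomycin was -0.53 (edgeR adjusted p = 0.367). Gene totals do not show which exons were read, so they are no check of the genotype, and every direction given for CB1R KO rests on the labels. Markers of lung cells were present in every group, with summed type II cell markers between 16710 and 29570 CPM. Titles of control 26 and of WT bleomycin 4-B2 and 7 are written with capitals and the other titles are not. Values within the lower-case libraries are therefore also given for most genes where a capitalised library stood out or a call was lost without them. For F2r, F13a1 and Serpine2 some of these values are not given.

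Bleomycin moved 6 of the 9 genes in WT lungs. Plat, Plau, Plaur, F3 and Procr rose, Thbd fell, and F13a1, F2r and Tfpi did not pass the threshold. In whole lung, fewer cells of a type and less RNA per cell cannot be told apart for any of these genes. Over all genes tested in this comparison 48.9% passed, 25.0% higher and 23.9% lower, so the 5 that rose and the 1 that fell are read against a lung in which about every other gene moved. The median log2 change of the 9 was 0.54, against -0.01 over all genes. In 4 genes (Plat, Plau, Plaur and Procr) every WT bleomycin library lay above every control library, which 21.5% of all genes did, and Thbd lay wholly below, which 18.8% did.

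Between CB1R KO and WT lungs, both after bleomycin, Plat was lower and Thbd was higher in the knockout, and the other 7 genes did not pass. Of all genes 0.979% passed in this comparison, 0.359% higher and 0.620% lower. Of the 9 genes, 8 had a log2 change below 0, as had 49.9% of all genes, with a median of -0.35 against 0.00 over all genes. At an unadjusted p of 0.05 the count was 4 lower (9.08% of all genes) and 1 higher (7.95%). In 5 genes (Plat, Plau, Plaur, F3 and F2r) every CB1R KO library lay below every WT library, which held for 3.10% of all genes, and in 1, Thbd, every CB1R KO library lay above, which held for 2.50%. Plau, Plaur, F3 and F2r thus had groups that did not overlap without passing the adjusted test.

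**Figure D1:**
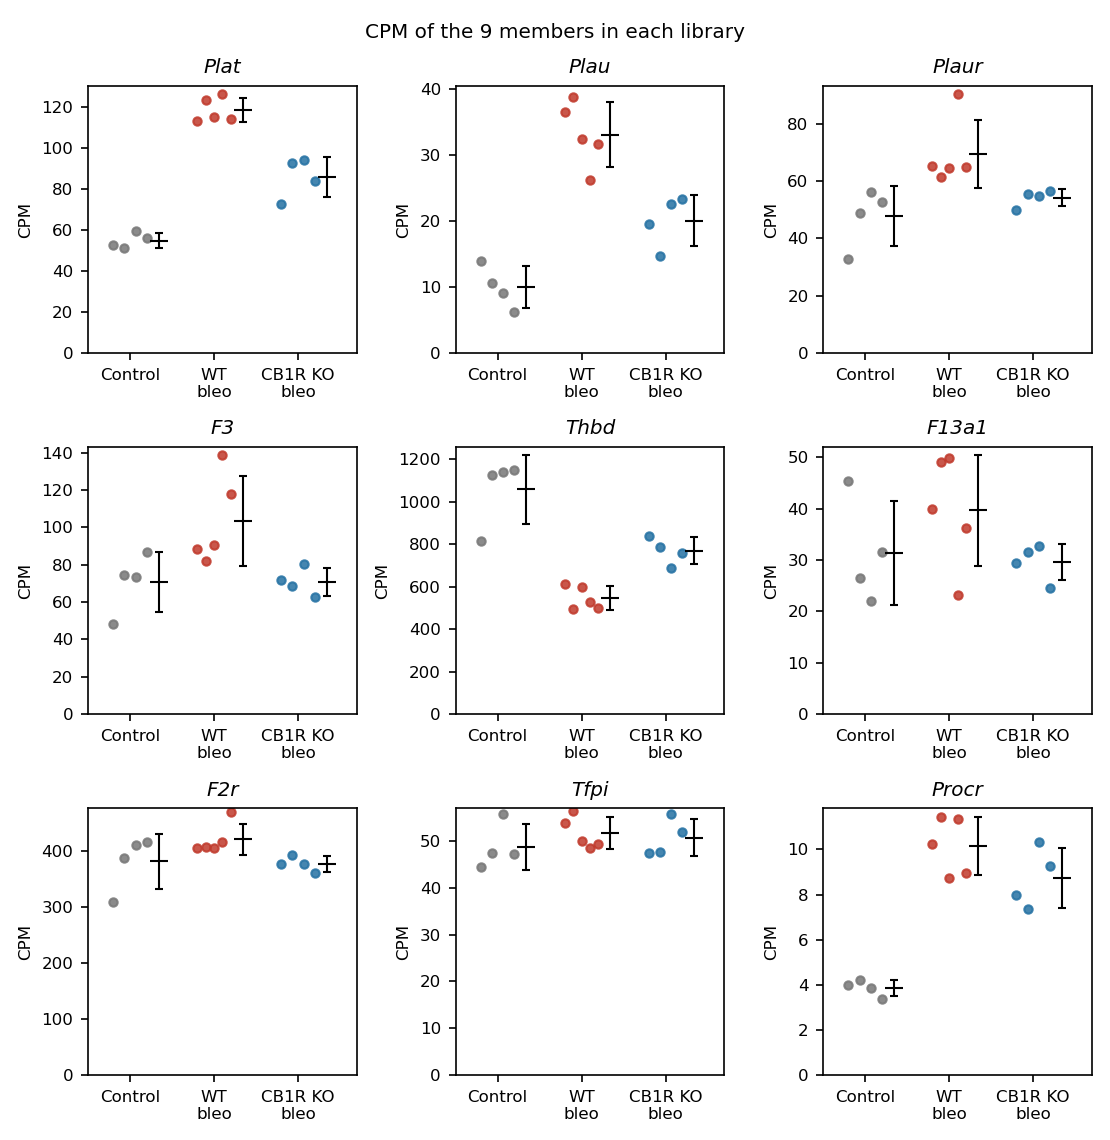
CPM of each gene (y axis, from 0, a separate scale per panel) in the 4 control, 5 WT bleomycin and 4 CB1R KO bleomycin libraries. Points are libraries in the order of the text and bars beside them the mean and SD. Plat, Plau and Procr are higher in both bleomycin groups than in control, Thbd is lowest in WT bleomycin, and Tfpi is level.

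Levels of different genes were compared in TPM, the transcript abundance unit of kallisto, which is scaled for transcript length. In control lung Thbd was the most abundant of the 9 with 418 ± 57.8 TPM (SD, n = 4), followed by F2r with 170 ± 19.1 TPM, and both were separated from their neighbours in the order. F3 at 58.9 ± 12.4 TPM and Plaur at 50.8 ± 10.5 TPM overlapped with each other. Plat (32.9 ± 2.10 TPM) and Tfpi (26.6 ± 3.10 TPM) also overlapped, as did F13a1 (11.7 ± 3.96 TPM) with Plau (6.52 ± 2.23 TPM) and Plau with Procr, the least abundant at 3.84 ± 0.397 TPM.

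The span of the family narrowed after bleomycin. The mean TPM of Thbd was 109 times that of Procr in control lung, 20.3 times in WT bleomycin and 30.7 times in CB1R KO bleomycin lung. In WT bleomycin lung Thbd at 222 ± 25.5 TPM (SD, n = 5) overlapped with F2r at 192 ± 11.2 TPM, whereas in CB1R KO lung Thbd at 321 ± 28.7 TPM (SD, n = 4) lay above F2r at 177 ± 6.76 TPM in every library. F3, Plaur and Plat formed a band of overlapping neighbours in both bleomycin groups, at mean levels of 88.2, 75.6 and 73.0 TPM in WT and 62.3, 60.8 and 54.3 TPM in CB1R KO lung. Plau stood above F13a1 by mean in both bleomycin groups and below it in control, with overlapping ranges in all 3 groups.

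**Figure D2:**
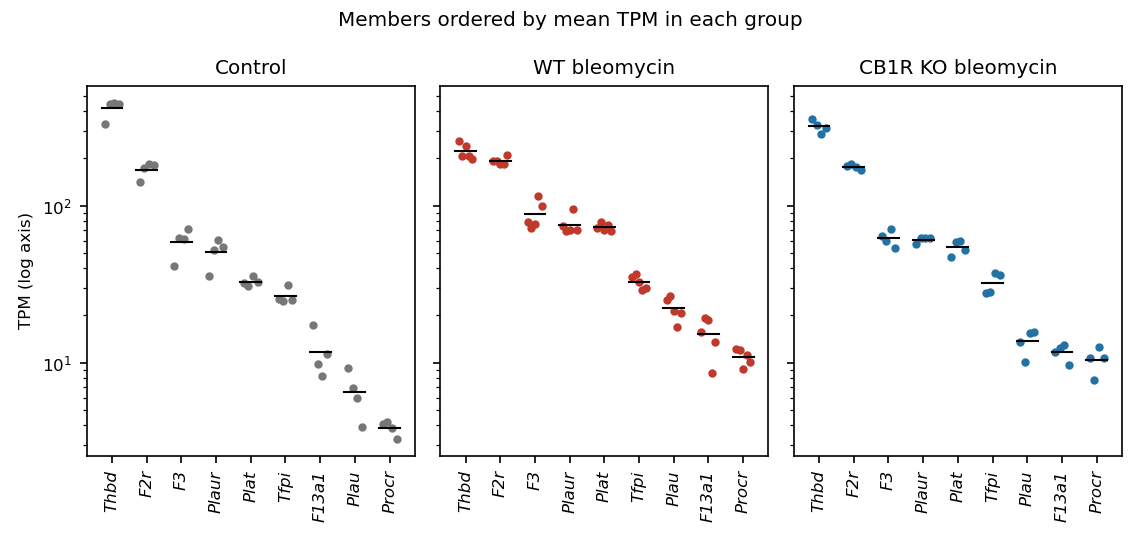
TPM (log axis) of the 9 genes in each group, ordered by group mean, with a point per library and a line at the mean. The distance from Thbd at the top to Procr at the bottom is 109-fold in control, 20.3-fold in WT bleomycin and 30.7-fold in CB1R KO bleomycin lung.

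The plasminogen activators gave the clearest pattern. Plat, the tissue-type activator, measured 52.6, 51.3, 59.6 and 56.0 CPM in control replicates 3, 21, 24 and 26. In WT bleomycin replicates 4, 2, 5, 4-B2 and 7 it measured 114, 124, 115, 127 and 114 CPM. CB1R KO replicates 8, 9, 10 and 11 gave 72.7, 92.7, 94.2 and 84.2 CPM. None of the 3 groups overlapped, and the CB1R KO libraries lay between the others. The log2 change was 1.11 ± 0.08 (SE) in WT bleomycin against control (2.16-fold, edgeR adjusted p = 1.38e-07) and -0.47 ± 0.08 in CB1R KO against WT (0.724-fold, edgeR adjusted p = 0.0187). Against control, the CB1R KO lungs were still higher by 0.65 ± 0.08 on the log2 scale (edgeR adjusted p = 4.26e-05). The difference between CB1R KO and WT did not pass without CB1R KO replicate 8, 9 or 11 (edgeR adjusted p = 0.0679, 0.0663 and 0.0687) or within the lower-case libraries, where its size was -0.45 (edgeR adjusted p = 0.129). Over all 25 alternatives its adjusted p ran from 1.16e-05 to 0.129 and it passed in 21.

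Plau, the urokinase-type activator, had the steepest rise of the 9. Its control libraries read 13.9, 10.6, 9.16 and 6.19 CPM in the order above, and the WT bleomycin libraries read 36.5, 38.9, 32.4, 26.2 and 31.7 CPM. In CB1R KO lung it stood at 19.5, 14.8, 22.6 and 23.4 CPM. As for Plat, no group overlapped with another and CB1R KO was intermediate. Bleomycin raised Plau by 1.73 ± 0.20 log2 in WT lung (3.32-fold, edgeR adjusted p = 8.35e-06) and CB1R KO lung exceeded control by 1.01 ± 0.21 (edgeR adjusted p = 0.00172). Between CB1R KO and WT the estimate was -0.72 ± 0.19 (95% confidence interval -1.13 to -0.30), which was larger than that of Plat but did not pass (edgeR adjusted p = 0.0778). It passed with DESeq2 (adjusted p = 0.0095 on all libraries) and with the spelling of the titles as a covariate (edgeR adjusted p = 0.0491), in 5 of 25 alternatives in all, with adjusted p from 0.000536 to 0.235.

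Plaur, the receptor that concentrates urokinase at the cell surface, was lowest in control replicate 3. The control values were 32.7, 49.0, 56.3 and 52.8 CPM, the WT bleomycin values 65.3, 61.5, 64.4, 90.3 and 65.0 CPM, and the CB1R KO values 49.9, 55.3, 54.9 and 56.5 CPM. WT bleomycin lay above both other groups, while CB1R KO and control overlapped. Its rise in WT bleomycin lung was 0.54 ± 0.14 log2 (1.45-fold, edgeR adjusted p = 0.00589), while CB1R KO differed from WT by -0.35 ± 0.14 (95% confidence interval -0.67 to -0.04, edgeR adjusted p = 0.218) and from control by 0.18 ± 0.15 (edgeR adjusted p = 0.352). WT bleomycin replicate 4-B2, whose title has capitals, stood apart at the top of its group. Within the lower-case libraries the rise was 0.48 ± 0.15 (edgeR adjusted p = 0.0281) and CB1R KO differed from WT by -0.235 ± 0.14 (edgeR adjusted p = 0.604).

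The proportion of receptor to ligand within each library differed between groups in its median only. Plaur TPM was 3.86 to 14.0 times Plau TPM in control lungs with a median of 8.84, 2.60 to 5.66 times in WT bleomycin lungs with a median of 3.25, and 3.92 to 6.14 times in CB1R KO lungs with a median of 4.10. All 3 groups overlapped in this proportion. Plau itself was a minor share beside Plat throughout: Plat TPM was a median of 5.23 times Plau TPM in control, 3.27 times in WT bleomycin and 3.64 times in CB1R KO lung.

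F3, the initiator of clotting, rose moderately in WT lung and had a mean near that of control in CB1R KO lung. Control replicates 3, 21, 24 and 26 had 48.3, 74.2, 73.5 and 86.7 CPM. WT bleomycin replicates 4, 2, 5, 4-B2 and 7 had 88.4, 81.9, 90.5, 139 and 118 CPM, so that the lowest of them overlapped with control 26. CB1R KO replicates 8, 9, 10 and 11 had 71.7, 68.4, 80.5 and 62.6 CPM, all under the lowest WT bleomycin library. The log2 change in WT bleomycin against control was 0.55 ± 0.17 (1.46-fold, edgeR adjusted p = 0.0153). CB1R KO lay -0.55 ± 0.17 from WT (95% confidence interval -0.93 to -0.17), which did not pass (edgeR adjusted p = 0.129), and 0.00 ± 0.18 from control (95% confidence interval -0.40 to 0.40, edgeR adjusted p = 0.998).

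The highest F3 libraries of control and of WT bleomycin were those with capitals in their titles. Within the lower-case libraries F3 rose by 0.42 ± 0.15 log2 in WT bleomycin (edgeR adjusted p = 0.0421), and CB1R KO differed from WT by -0.30 ± 0.14 (edgeR adjusted p = 0.482). The CB1R KO difference passed with DESeq2 on all libraries (adjusted p = 0.0396) and on the 2 groups, and its adjusted p ran from 0.0170 to 0.482 over the 25 alternatives. What the spelling stands for is not given in the sources used here, and its part in the difference was not tested further.

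Tfpi, whose product inhibits the complex that F3 starts, had the smallest change of the 9 in edgeR both between WT bleomycin and control and between CB1R KO and WT. It read 44.5 to 55.8 CPM in control, 48.5 to 56.5 CPM in WT bleomycin and 47.4 to 55.7 CPM in CB1R KO lung, with full overlap. The log2 changes were 0.08 ± 0.08 in WT bleomycin against control (95% confidence interval -0.09 to 0.26) and -0.03 ± 0.08 in CB1R KO against WT (95% confidence interval -0.20 to 0.15), with edgeR adjusted p = 0.401 and 0.892. On the TPM scale, however, limma called Tfpi higher in WT bleomycin lung by 0.30 on log2(TPM + 1) (adjusted p = 0.0348, with a range of 0.0342 to 0.698 over the 25 alternatives), with means of 26.6 TPM in control and 32.8 TPM in WT bleomycin. F3 TPM was a median of 2.25 times Tfpi TPM in control, 2.33 times in WT bleomycin and 2.02 times in CB1R KO lung, with overlapping ranges.

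Thbd carried the one fall. Its control libraries had 815, 1127, 1141 and 1149 CPM, with replicate 3 far below the other 3. WT bleomycin libraries had 611, 495, 600, 528 and 501 CPM (for replicates 4, 2, 5, 4-B2 and 7), and CB1R KO libraries had 839, 787, 686 and 758 CPM. WT bleomycin lay below both other groups, while CB1R KO reached into the control range only because of control 3. Thbd fell by 0.95 ± 0.11 log2 in WT bleomycin lung (0.517-fold, edgeR adjusted p = 5.92e-06). It was 0.49 ± 0.11 higher in CB1R KO than in WT (1.40-fold, edgeR adjusted p = 0.0416), and CB1R KO remained -0.46 ± 0.11 from control (edgeR adjusted p = 0.00533). The difference between CB1R KO and WT is near the threshold: it did not pass within the lower-case libraries (0.43 ± 0.13, edgeR adjusted p = 0.28), with the spelling as a covariate (edgeR adjusted p = 0.111) or without any 1 of control 21, control 24, WT bleomycin 2, 5, 4-B2 or 7, or CB1R KO 8, 9 or 11. Over the 25 alternatives it passed in 14, with adjusted p from 3.30e-05 to 0.280 and log2 changes from 0.43 to 0.54.

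Thbd is made mainly by endothelium, and markers listed as capillary endothelial moved with it. They were Pecam1, Cdh5, Kdr, Cldn5, Tie1, Egfl7, Tek, Cd93, Calcrl, Car4, Ednrb and Aplnr. Whether they are restricted to capillaries was not tested. Of 12 such markers, 11 were lower in WT bleomycin than in control and 0 higher, and their summed level was 5772 to 6649 CPM in control, 3668 to 4455 CPM in WT bleomycin and 4516 to 5007 CPM in CB1R KO lung, without overlap between groups. Of all genes 23.9% were lower and 25.0% higher in WT bleomycin than in control. All 12 markers had a log2 change above 0 in CB1R KO against WT and 1 passed, against 50.1% and 0.979% of all genes. None of the 12 was at 0 in any group. Per 1000 CPM of these markers, Thbd measured 123 to 199 CPM in control (median 186), 111 to 151 CPM in WT bleomycin (median 136) and 152 to 170 CPM in CB1R KO lung (median 162). On that scale WT bleomycin overlapped with control, through control 3, and lay below CB1R KO by the gap between 151 and 152 CPM. Other endothelial genes went the other way. Of 6 lymphatic endothelial markers, 4 were higher and 0 lower in WT bleomycin than in control. Vwf, an endothelial gene of the clotting list, rose by 0.55 ± 0.13 log2 in the same comparison (edgeR adjusted p = 0.0025). The part of endothelial content in the Thbd difference was not tested further.

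**Figure D3:**
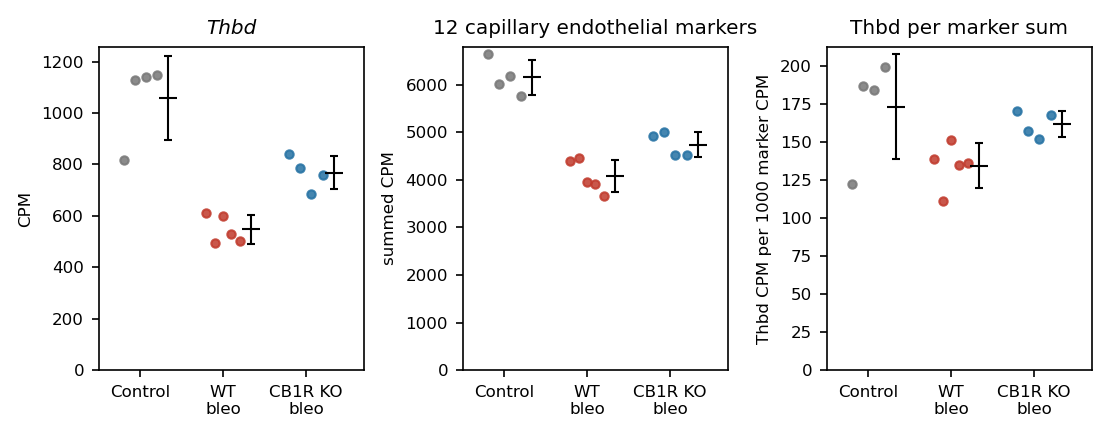
Thbd CPM, the summed CPM of 12 capillary endothelial markers and Thbd CPM per 1000 marker CPM (y axes, from 0) by library, with the mean and SD beside the points. Both Thbd and the markers are lowest in WT bleomycin lung, and the scaled Thbd values of WT bleomycin (111 to 151) and CB1R KO lung (152 to 170) nearly touch.

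Procr, which presents protein C to the thrombomodulin complex, moved the opposite way to its partner. It read 3.98, 4.21, 3.84 and 3.35 CPM in control, 10.3, 11.4, 8.75, 11.4 and 8.95 CPM in WT bleomycin, and 7.98, 7.36, 10.3 and 9.28 CPM in CB1R KO lung. Both bleomycin groups lay wholly above control and overlapped with each other. Procr rose by 1.40 ± 0.14 log2 in WT bleomycin lung (2.63-fold, edgeR adjusted p = 2.79e-06) and stood 1.18 ± 0.15 above control in CB1R KO lung (edgeR adjusted p = 3.94e-05). CB1R KO and WT differed by -0.21 ± 0.13 (95% confidence interval -0.51 to 0.08, edgeR adjusted p = 0.437). Per 1000 CPM of the capillary endothelial markers Procr had a median of 0.61 CPM in control, 2.44 CPM in WT bleomycin and 1.84 CPM in CB1R KO lung. Whole-lung RNA does not show which cells express Procr, so this is no level per endothelial cell.

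The relation of the 2 protein C partners therefore shifted by a wide margin. Thbd TPM was 81.6 to 135 times Procr TPM in control lungs, 17.2 to 26.4 times in WT bleomycin lungs and 22.7 to 42.2 times in CB1R KO lungs. Control did not overlap with either bleomycin group, whereas the bleomycin groups overlapped. F3 and Thbd, which start and restrain clotting, also changed their proportion: Thbd TPM was 6.27 to 8.00 times F3 TPM in control, 1.79 to 3.28 times in WT bleomycin and 4.04 to 5.82 times in CB1R KO lung, with no overlap between any of the groups. These ratios are descriptions within each library and were not tested.

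**Figure D4:**
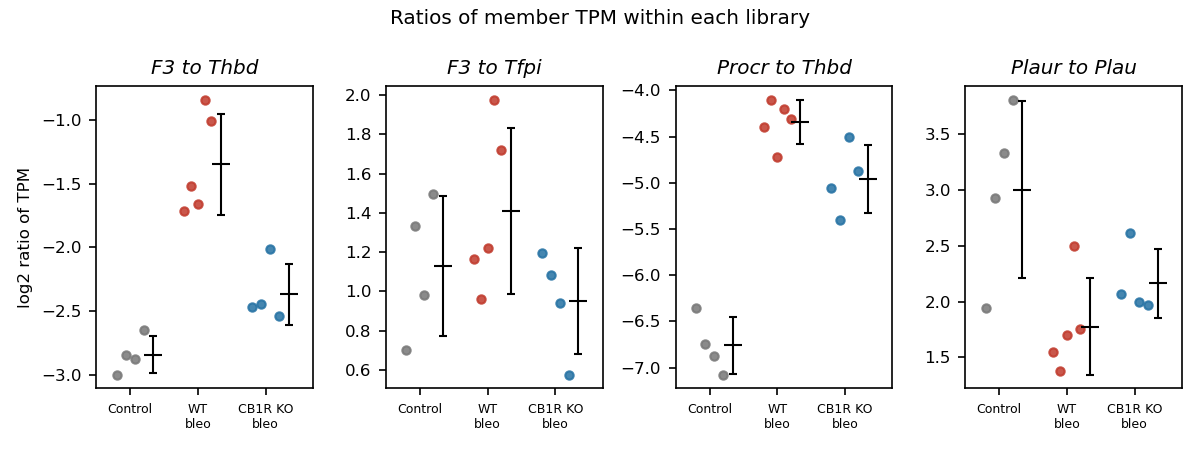
Log2 ratio of TPM between pairs of the genes in each library (points), with the mean and SD beside them. F3 to Thbd separates the 3 groups, with control at -3.00 to -2.65, WT bleomycin at -1.72 to -0.84 and CB1R KO at -2.54 to -2.01, while F3 to Tfpi overlaps between all groups.

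F2r, the thrombin receptor and the second most abundant of the 9, changed little. Control libraries had 310, 389, 412 and 417 CPM, WT bleomycin libraries 405, 408, 407, 417 and 470 CPM, and CB1R KO libraries 377, 394, 377 and 361 CPM. WT bleomycin replicate 7 was the highest and control 3 the lowest. CB1R KO lay wholly below WT bleomycin, by a small step, and inside the control range. The log2 change was 0.14 ± 0.08 in WT bleomycin against control (edgeR adjusted p = 0.166) and -0.16 ± 0.08 in CB1R KO against WT (95% confidence interval -0.34 to 0.02, edgeR adjusted p = 0.341).

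F13a1, which encodes the fibrin crosslinker made by macrophages and megakaryocytes, varied widely among mice of 1 group. It ranged from 22.0 to 45.3 CPM in control, with replicate 3 the highest, from 23.2 to 49.8 CPM in WT bleomycin, with replicate 4-B2 the lowest, and from 24.6 to 32.8 CPM in CB1R KO lung. The coefficient of variation was 32.2% in control, 27.5% in WT bleomycin and 12.1% in CB1R KO lung. No comparison passed: the log2 change was 0.34 ± 0.22 in WT bleomycin against control (edgeR adjusted p = 0.215) and -0.43 ± 0.22 in CB1R KO against WT (95% confidence interval -0.91 to 0.05, edgeR adjusted p = 0.335). Without control 3 the rise in WT bleomycin lung was 0.57 and passed (edgeR adjusted p = 0.0355), and without WT bleomycin 4-B2 it was 0.48 and passed (edgeR adjusted p = 0.0467), while over the 25 alternatives the adjusted p ran from 0.0355 to 0.485.

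Beside F13a1, monocyte and macrophage markers were higher in WT bleomycin than in control for 9 of 11 genes, with sums of 462 to 592 CPM in control, 1326 to 1563 CPM in WT bleomycin and 989 to 1463 CPM in CB1R KO lung. Platelet markers were lower in WT bleomycin for 9 of 12 and higher for 2, with sums of 112 to 188, 108 to 119 and 91.6 to 115 CPM. Fibroblast markers, beside which the rise of Plat and Plau also stands, were higher for 6 of 9 and lower for 1, with sums of 2029 to 2286 CPM in control, 6698 to 9786 CPM in WT bleomycin and 4925 to 7664 CPM in CB1R KO lung. Of all genes 25.0% were higher and 23.9% lower in WT bleomycin than in control. No marker of these 3 lists was at 0 in any group, and none passed in CB1R KO against WT, where 0.979% of all genes did. Beside the CB1R KO differences, all 8 type II cell markers had a log2 change above 0 and 3 passed. Their sums were 23590 to 27830 CPM in control, 16710 to 20510 CPM in WT bleomycin and 21000 to 29570 CPM in CB1R KO lung. Muscle markers were at 629 to 1541 CPM in control, 98.6 to 413 CPM in WT bleomycin and 431 to 751 CPM in CB1R KO lung. In CB1R KO against WT, 5 of 5 tested were above 0 and 0 past the threshold. In WT bleomycin against control, 5 of 8 type II and 5 of 5 tested muscle markers were lower and 0 higher. The part of such cell types in the changes of these genes was not tested.

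**Figure D5:**
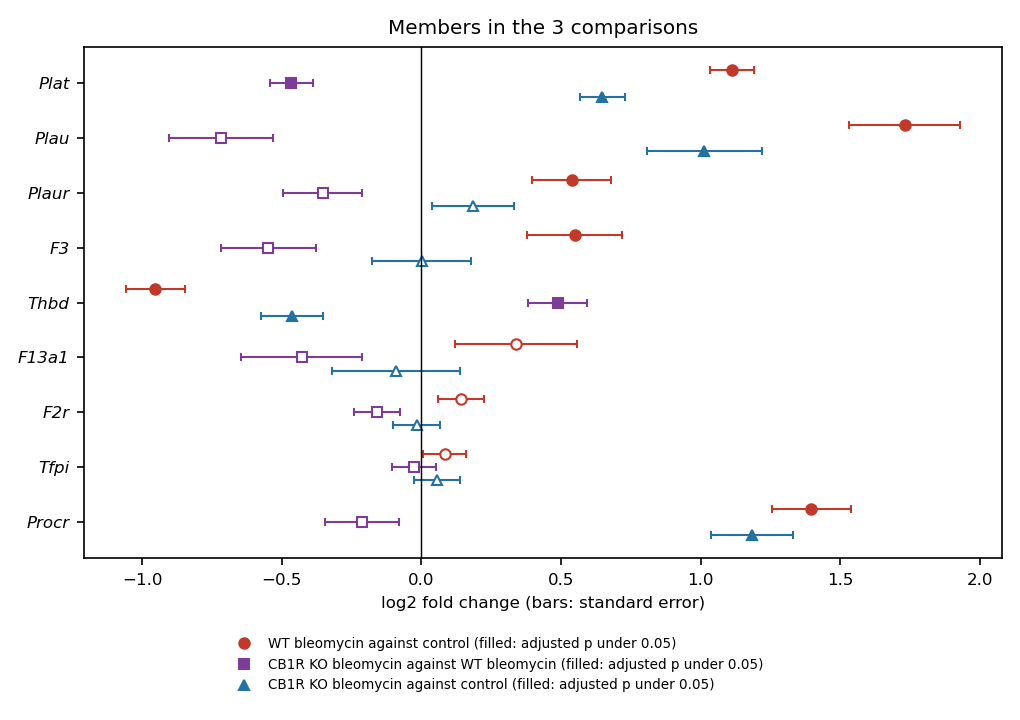
Log2 fold change (x axis) with its standard error for each gene in 3 comparisons, filled where the edgeR adjusted p is under 0.05. The WT bleomycin and CB1R KO bleomycin groups share the control libraries, and for Plat, Plau and Thbd the CB1R KO change from control is in the direction of the WT change and smaller.

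CB1R KO lungs after bleomycin were also set against control, with the control libraries shared with the first comparison. Plat, Plau and Procr rose and Thbd fell, while Plaur, F3, F13a1, F2r and Tfpi did not pass. Of all genes 35.4% passed here, 19.0% higher and 16.3% lower. Every CB1R KO library lay above control for 3 of the 9 genes (17.7% of all genes) and below it for 0 (15.8% of all genes). F13a1 gave -0.09 ± 0.23, F2r -0.02 ± 0.09 and Tfpi 0.06 ± 0.08 on the log2 scale.

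Across the 13 libraries some of the genes moved together after the group means were taken out. Within groups, Pearson's r of log2 CPM was 0.81 between F3 and Plaur, 0.75 between F3 and F2r and 0.67 between Plaur and F2r, and it was -0.86 between Plaur and F13a1 and -0.71 between F3 and Plau. Plat and Plau, whose r was 0.88 over all 13 libraries, gave -0.29 within groups. These pairs were named because their r was among the highest or lowest. Control 3 was the lowest of its group for F3, Plaur and F2r and the highest for F13a1 and Plau. WT bleomycin 4-B2 was the highest of its group for F3 and Plaur and the lowest for F13a1 and Plau. How far r rests on these libraries was not tested. The values describe 13 libraries that share group and, for some, title spelling, and no test was made.

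F3 and Plaur, the pair with the highest r within groups, are shown here with the sequence before their transcription start. The sequences are the 250 bases upstream of the start in RefSeq on GRCm38.p6, written 5′ to 3′ on the strand of the gene. Capitals mark matches on either strand to the AP-1 motif (TGANTCA), the GC box (GGGCGG) or the TATA box (TATAAA), and overlapping matches run together. The F3 stretch is chr3:121723287-121723536 and that of Plaur chr7:24462233-24462482, both on the plus strand.
F3: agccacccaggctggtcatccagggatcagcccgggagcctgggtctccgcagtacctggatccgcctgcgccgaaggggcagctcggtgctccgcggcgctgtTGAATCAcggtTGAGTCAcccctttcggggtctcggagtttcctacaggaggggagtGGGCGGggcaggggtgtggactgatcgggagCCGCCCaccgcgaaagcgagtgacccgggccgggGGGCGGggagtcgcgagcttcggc
Plaur: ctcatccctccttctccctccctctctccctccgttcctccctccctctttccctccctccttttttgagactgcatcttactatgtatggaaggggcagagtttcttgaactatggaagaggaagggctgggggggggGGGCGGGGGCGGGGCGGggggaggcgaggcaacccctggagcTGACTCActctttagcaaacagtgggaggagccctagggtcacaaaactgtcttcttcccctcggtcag
F3 held 2 AP-1 matches, 146 and 135 bases before the start, and 3 GC boxes. Plaur held 1 AP-1 match, 69 bases before the start, and 3 GC boxes. Of 32851 promoters of this length, 6.75% held an AP-1 match, 32.7% a GC box and 12.4% a TATA box. An entry was found for 6 of the 9 genes, of which Procr and F2r had 1 AP-1 match each and F13a1 and Tfpi had 0. Plat, Plau and Thbd were not matched. A match is a description of the letters, not of binding.

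For each gene the 2 tested genes with the most similar profile were found by Pearson's r of log2 CPM over the 13 libraries. Procr was nearest to Csf2rb2 (0.991), a cytokine receptor subunit, and Lgals3bp (0.99). Plat was nearest to Megf11 (0.982) and Slc39a14 (0.977), a metal transporter, Plau to Nlgn2 (0.976) and Mthfd2 (0.968), a mitochondrial folate enzyme, and Thbd to Tmem163 (0.97) and Phlpp1 (0.966), a phosphatase. After the group means were taken out, the likeness to Plat was 0.589 for Megf11 and 0.425 for Slc39a14, while the nearest genes kept 0.949 with Plau (Nlgn2), 0.853 with Procr (Csf2rb2) and 0.759 with Thbd (Tmem163). Genes that changed less had weaker neighbours, namely Pes1 (0.939) and Pde12 (0.936) for Plaur, Porcn (0.924) and Coro2a (0.917) for F3, Itgam (0.905) and Traf2 (0.868) for F13a1, Ppp1r8 (0.905) and Nop56 (0.894) for Tfpi, and Sema5a (0.885) and Pde1a (0.856) for F2r. Within groups, r with F13a1 was 0.892 for Itgam, an integrin subunit of monocytes and macrophages, and 0.917 for Traf2. All these neighbours were picked for the highest r among the tested genes in these same libraries. A high r within groups therefore follows in part from that choice, most of all for genes that differed little between groups.

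The wider pathway was read from lists of 45 genes, of which 34 passed the count filter. In WT bleomycin against control 17 were higher and 4 lower, in CB1R KO against WT 0 were higher and 1 lower, and in CB1R KO against control 18 were higher and 3 lower. Over all genes tested 25.0% were higher and 23.9% lower in WT bleomycin against control. The shares were 0.359% and 0.620% in CB1R KO against WT and 19.0% and 16.3% in CB1R KO against control. The plasmin system, 8 tested, had 6 higher and 0 lower in WT bleomycin lung, with a median log2 change of 0.64. Serpine2, which encodes protease nexin 1, an inhibitor of thrombin and of the plasminogen activators, read 115 to 135 CPM in control, 350 to 441 CPM in WT bleomycin and 220 to 360 CPM in CB1R KO lung. It rose by 1.75 ± 0.12 log2 in WT bleomycin lung (edgeR adjusted p = 1.38e-07) and was lower in CB1R KO than in WT by -0.55 ± 0.12 (edgeR adjusted p = 0.0416). However, CB1R KO replicate 10 overlapped with WT bleomycin 4. The second call was kept in 10 of 25 alternatives and was lost within the lower-case libraries. Anxa2 and S100a10, which together form a receptor for plasminogen and Plat at the cell surface, rose by 0.64 ± 0.05 and 0.64 ± 0.08 (edgeR adjusted p = 5.18e-07 and 2.05e-05). Plg, the plasminogen gene itself, was near 0 in the lung, with a mean of 0.0608 CPM in control and 0 counts in every WT bleomycin library.

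Clotting factors and the enzymes that process them had 13 genes tested, with 8 higher and 2 lower in WT bleomycin lung. Of all genes 25.0% were higher and 23.9% lower there. F7, the partner of F3, rose from 22.5 ± 7.41 CPM (SD, n = 4) to 71.8 ± 10.2 CPM (SD, n = 5), by 1.67 ± 0.18 log2 (edgeR adjusted p = 5.10e-06), and was at 62.9 ± 10.6 CPM in CB1R KO lung. Kng2, a kininogen gene, was close to absent in control, with 0, 4, 2 and 0 counts, and had 48 to 70 counts in WT bleomycin and 31 to 211 counts in CB1R KO lung (edgeR adjusted p = 2.52e-06 for WT bleomycin against control). Lman1, a receptor that carries factors V and VIII out of the endoplasmic reticulum, rose by 0.34 ± 0.05 (edgeR adjusted p = 4.94e-05). F5 and Ggcx, the vitamin K-dependent carboxylase, were the 2 that fell, by 0.76 ± 0.25 and 0.28 ± 0.09. Both calls were lost within the lower-case libraries (edgeR adjusted p = 0.0761 for F5 and 0.119 for Ggcx). The F5 change was -0.48 without control replicate 3, the only library whose absence moved it by over 1.5 times (edgeR adjusted p = 0.111). Its call was also lost without WT bleomycin replicate 2 (edgeR adjusted p = 0.0543), and the call was kept in 21 of 25 alternatives for F5 and in 22 for Ggcx. Hepatocyte markers, since most clotting factors come from the liver, had sums of 2.22 to 4.04 CPM in control, 3.42 to 6.06 CPM in WT bleomycin and 4.19 to 6.28 CPM in CB1R KO lung, and 1 of 2 tested markers rose in WT bleomycin lung. Kng2, a single gene, stood at 0 to 0.24, 3.21 to 4.43 and 2.03 to 4.72 CPM in the same groups. The marker sums, each over 7 genes, had medians of 2.41, 5.31 and 5.56 CPM in these groups, and Kng2 had medians of 0.064, 3.94 and 2.97 CPM. The part of such cells in the Kng2 change was not tested.

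Anticoagulants had 10 genes tested, with 3 higher and 2 lower in WT bleomycin lung. These counts are near the shares over all genes, 25.0% higher and 23.9% lower. Tfpi2, a relative of Tfpi, rose by 2.45 ± 0.21 log2 (edgeR adjusted p = 6.39e-07), in contrast with Tfpi itself, from 1.70 ± 0.577 CPM (SD, n = 4) to 9.26 ± 1.25 CPM (SD, n = 5). In CB1R KO lung it was at 5.93 ± 1.15 CPM, below every WT bleomycin library, and differed from WT by -0.65 ± 0.18 (edgeR adjusted p = 0.101). Serpina10, the protein Z-dependent inhibitor, and Pros1, the protein S cofactor of activated protein C, rose by 2.42 ± 0.32 and 0.52 ± 0.07 (edgeR adjusted p = 2.83e-05 and 3.48e-05). Serpinc1, the antithrombin gene, and Proz, the protein Z gene, fell by 0.93 ± 0.20 and 0.65 ± 0.17, the latter not within the lower-case libraries (edgeR adjusted p = 0.0519). The protease receptors related to F2r gave 0 of 3 called in all 3 comparisons with edgeR, DESeq2 and limma, and 0 also had an unadjusted edgeR p under 0.05. Under bleomycin in WT lung, the log2 changes of F2rl1, F2rl2 and F2rl3 were -0.01, 0.02 and 0.44.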

How the data were processed

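Lung RNA of 13 mice was sequenced as paired-end reads from oligo(dT)-enriched NEBNext Ultra II libraries. The authors quantified the reads with kallisto (version not given in the sources used here) on GRCm39 protein-coding transcripts, and deposited estimated counts and TPM values summed per gene symbol. Of the TPM table, 1 column matches no sample listed and was not used. The single-sample files repeat the tables and were not used.

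Estimated counts were rounded, filtered with filterByExpr, scaled by TMM and tested with edgeR 4.0.16 in R 4.3.3, with 3 groups, no covariate and Benjamini-Hochberg adjustment over 15315 genes. DESeq2 1.42.0 and limma 3.58.1 served as alternatives, beside other filters and scalings, the spelling of titles, thinning of CB1R KO replicate 11 and each library left out in turn. The fit was tested on simulated data. Python 3.11.15 with matplotlib 3.10.9 drew the plots.

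Members and lists were chosen with earlier results of these data known. Named were the 9 members, the 3 genes of each list with the lowest p in WT bleomycin against control and any past the threshold in CB1R KO against WT, and the 2 nearest profiles of each member. Plg, F5, Ggcx, Vwf, Serpinb2, Serpinc1 and Proz were named after their values were seen. Of the lists, 1 gene is not reported here. It was taken out of the plasmin list after values were seen, S100a10 took its place, and all counts of other pathway genes leave it out.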

Additional observations from a re-analysis of the deposited data

Results flagged for a closer look

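In 6 of 63 groups of 4 or 5 libraries, 1 library lay apart from the others by Dixon's criterion at 95%, which chance gives in about 1 in 20 groups. Plaur was at 90.25 CPM in WT bleomycin replicate 4-B2, above the other 4 WT bleomycin libraries, and F2r was at 469.6 CPM in WT bleomycin replicate 7. Thbd was at 815.2 CPM in control replicate 3, below the other controls, and without that library its log2 change in WT bleomycin lung was -1.06. Among the wider pathway, F7 was at 33.53 CPM in control replicate 21. Tfpi2 was at 2.562 CPM in control replicate 24 and at 7.642 CPM in CB1R KO replicate 10, each the highest of its group.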

How the results depend on the processing

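In WT bleomycin against control the 6 calls among the 9 genes held under all 25 alternatives, and in CB1R KO against control the 4 calls did. In CB1R KO against WT the count of 2 became 4 with DESeq2 on all libraries, 4 with DESeq2 on the 2 groups and 0 within the lower-case libraries, and ranged from 0 to 3 with 1 library left out. Over all genes the calls in this comparison went from 150 to 643 and 642 with the DESeq2 fits and to 6 within the lower-case libraries. They were 109 and 93 with limma, 88 with edgeR on the 2 groups and 41 with the spelling as a covariate. With 1 library left out they ran from 1 to 653. Among the other pathway genes, the 1 call of that comparison became 3 with DESeq2 on all libraries and 3 on the 2 groups, 0 with limma on log2(TPM + 1) and 0 on log2(TPM + 0.1), 0 with edgeR on the 2 groups, 0 with the spelling as a covariate and 0 within the lower-case libraries, and ranged from 0 to 4 with 1 library left out. The count of 4 came without CB1R KO replicate 10, and 0 without control 21, 24 or 26, WT bleomycin 2, 5, 4-B2 or 7, or CB1R KO 8, 9 or 11. The members' count was 3 without control 3 or 26, 0 without CB1R KO 8, 9 or 11, and 1 without control 21 or 24 or WT bleomycin 2, 5, 4-B2 or 7. Over all genes the calls were 177 and 136 without control 3 and 26, and 9, 1 and 3 without CB1R KO 8, 9 and 11. They were 110 and 85 without control 21 and 24, and 62, 24, 30 and 35 without WT bleomycin 2, 5, 4-B2 and 7. The cause of these shifts was not tested. No scaling moved the median of all genes by over 0.1 log2.

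Direction turned only for values that passed no test. In WT bleomycin against control, F2rl1 was 0.0241 with limma on log2(TPM + 1), 0.02635 on log2(TPM + 0.1) and between -0.0704 and 0.08092 with 1 library left out, where F2rl2 was between -0.08696 and 0.1215. In CB1R KO against WT, with 1 library left out Tfpi was between -0.07258 and 0.007274, Serpina10 between -0.2565 and 0.05818 and F2rl2 between -0.02076 and 0.252, Proz was -0.04696 with the spelling as a covariate, -0.05972 within the lower-case libraries and between -0.03129 and 0.1507 with 1 library left out, and F2rl2 was -0.006898 with CB1R KO 11 thinned. In CB1R KO against control, F3 was -0.003001 with RLE and -0.01659 with upper-quartile scaling, -0.0009609 with DESeq2 on all libraries and -0.0001449 on the 2 groups, and between -0.1414 and 0.11 with 1 library left out. F13a1 was 0.03933 and 0.04556 with limma, and between -0.2259 and 0.1453 with 1 library left out. F2r was 0.06959 and 0.06999 with limma, 0.02008 with the spelling as a covariate, 0.03034 within the lower-case libraries and -0.1019 to 0.02363 with 1 library left out. F2rl3 was -0.00355 with DESeq2 on the 2 groups, -0.03719 and -0.1572 with limma, -0.007969 with the spelling as a covariate, -0.06765 within the lower-case libraries, -0.1314 with CB1R KO 11 thinned and -0.3173 to 0.2569 with 1 library left out.

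No paired analysis was possible because the groups compared share no replicate number. Depth limits the genes of few counts, such as Kng2, Serpina10, Serpinb2 and F2rl3, which fell under the stricter count filter and have no value there.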

Other observations

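The other marker lists, read as counts in WT bleomycin against control, gave 4 of 6 lymphatic endothelial genes higher, 4 of 6 tested neutrophil genes lower, 5 of 6 red blood cell genes lower, 5 of 7 B and plasma cell genes lower and 1 higher, 4 of 7 T and NK cell genes lower, 3 of 7 type I cell genes lower and 1 higher, 4 of 7 ciliated and secretory genes lower, 2 of 7 mesothelial genes lower and 1 higher, 3 of 6 tested adipocyte genes lower and 1 of 7 alveolar macrophage genes lower. Of all genes 25.0% were higher and 23.9% lower in that comparison. In CB1R KO against WT bleomycin, 1 T and NK cell gene was higher and no other gene of these 10 lists passed with edgeR, where 0.979% of all genes did.

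Serpinb2, an inhibitor of the urokinase activator, was named after its values were seen because its CB1R KO and WT bleomycin libraries did not overlap. It held 7 to 16 counts per library in control, 15 to 39 in WT bleomycin and 4 to 22 in CB1R KO lung. The 22 counts came from CB1R KO replicate 11, the deepest library. In CPM the ranges were 0.451 to 0.961, 0.938 to 2.41 and 0.241 to 0.808 in the same order. Its log2 change was 1.26 ± 0.38 in WT bleomycin against control (edgeR adjusted p = 0.0139) and -1.64 ± 0.39 in CB1R KO against WT (edgeR adjusted p = 0.0587). The highest WT bleomycin libraries were 4-B2 and 7, as for F3, at 2.22 and 2.41 CPM against 0.938 to 1.27 CPM in the other 3. Within the lower-case libraries the log2 changes were 0.62 ± 0.41 (edgeR adjusted p = 0.257) and -1.14 ± 0.39 (edgeR adjusted p = 0.339), so the rise after bleomycin did not pass there. Over 24 alternatives the CB1R KO difference passed in 3, both DESeq2 fits and the fit without CB1R KO replicate 10.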
